A study of Homo sapiens with 8 samples.

Results

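Nuclear receptors are transcription factors that bind DNA as monomers or dimers and, in many cases, switch between repression and activation when a small lipophilic ligand enters them. The 10 genes described here encode receptors other than the retinoid receptors. They were NR4A1, NR4A2, NR4A3, NR1H2, NR1H3, NR3C1, VDR, PPARD, THRA and NR1D1. Their peaks were taken from 15412 sites called by Cut&Run for the PML::RARA fusion protein. A peak was included when it bore the authors' label for 1 of these genes, or when it had no symbol and its centre lay within 50 kb of the centre of such a peak on the same chromosome. This gave 28 peaks, which is 0.182% of the list. Of them, 11 carried the symbol of a member gene and 17 carried no symbol.

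Cut&Run releases the DNA around an antibody-bound protein in isolated nuclei with a tethered nuclease. U937-PR9 is a myeloid cell line carrying a PML::RARA gene behind a zinc-inducible promoter. Induced cells were kept for 5 h in ZnSO4 at 100 μM, uninduced cells for the same time with water in its place, and antibodies against PML::RARA and against RARA were each applied to 2 replicates per condition, which gave 8 libraries. The list analysed here belongs to the anti-PML::RARA antibody after induction, and the other groups were not analysed here. It gives each peak 1 height and 1 width rather than a pair by replicate, which leaves no replicate error to compute, and no difference was tested. It holds no expression values, so neither the myeloid identity of the cells nor the expression of these receptors could be checked. Because all cells behind the list had received zinc, an effect of zinc and an effect of the fusion protein cannot be told apart from these peaks alone.

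PML::RARA retains the DNA-binding domain of the retinoic acid receptor alpha. Retinoic acid receptors, like the liver X receptors, the vitamin D receptor, the PPARs and the thyroid hormone receptors, pair with a retinoid X receptor and bind 2 copies of a hexamer related to AGGTCA, called a half-site, at a set spacing. The NR4A receptors and NR1D1 can bind as monomers to a half-site with an A/T-rich extension, and the glucocorticoid receptor binds a palindrome of a different hexamer. Several of the members have known roles in myeloid cells, among them VDR in monocytic differentiation, the glucocorticoid receptor and the NR4A receptors in inflammatory gene control and the liver X receptors in cholesterol efflux from macrophages.

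The sequences at the apex, the position of largest signal, are shown for 5 peaks that the results turn on. These are the highest and widest NR1D1 peak, the NR1D1 upstream peak with the densest half-sites, the 2 highest PPARD peaks and the wide NR3C1 peak. Each run is 121 bases of the plus strand of GRCh37, centred on the apex and free of annotated exons. Capitals mark half-sites, read on either strand, of which form 1 is AGGTCA, form 2 is AGTTCA, form 3 is GGGTCA and form 4 is GGTTCA.
NR1D1, intron 1 peak, chr17:38255456-38255576: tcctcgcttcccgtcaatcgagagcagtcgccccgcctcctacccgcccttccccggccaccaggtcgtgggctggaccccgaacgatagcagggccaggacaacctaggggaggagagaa
NR1D1, upstream peak, chr17:38267950-38268070: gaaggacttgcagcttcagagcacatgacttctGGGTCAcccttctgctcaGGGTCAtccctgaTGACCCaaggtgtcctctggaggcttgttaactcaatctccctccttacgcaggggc
PPARD, intron 2 peak, chr6:35338245-35338365: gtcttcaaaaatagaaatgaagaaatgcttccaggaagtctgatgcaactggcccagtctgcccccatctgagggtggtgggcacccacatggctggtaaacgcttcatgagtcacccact
PPARD, intron 3 peak, chr6:35385957-35386077: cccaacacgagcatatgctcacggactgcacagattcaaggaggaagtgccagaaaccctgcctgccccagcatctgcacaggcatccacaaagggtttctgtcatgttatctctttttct
NR3C1, promoter peak, chr5:142784347-142784467: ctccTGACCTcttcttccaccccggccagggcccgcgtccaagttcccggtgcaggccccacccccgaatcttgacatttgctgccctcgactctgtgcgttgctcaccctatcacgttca

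Within these 121 bases, the NR1D1 upstream peak held 3 half-sites and the NR3C1 peak held 1. The other 3 windows held none. The window of the NR1D1 intron 1 peak was the richest of the 5 in G and C, at 66.9%, with 10 CpG dinucleotides, whereas each of the PPARD windows was 51.2% G and C.

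Of the 10 genes, 7 had at least 1 peak with their symbol. Those were NR4A1 with 3 labelled peaks, PPARD and NR1D1 with 2 each, and NR4A2, NR1H2, NR3C1 and VDR with 1 each. NR4A3, NR1H3 and THRA had none. Among all 20149 protein-coding genes, 29.9% had a labelled peak. By position, 7 of the 10 genes had the apex of a peak within 1 kb of a start site of their own, whatever the label of that peak, against 39.2% of protein-coding genes. These were not the same 7, since NR1H3 (30 bp from a start other than the canonical one, a peak labelled ACP2) was gained and NR1D1 (1326 bp) was lost. The 10 genes were chosen with earlier results of these data known, so neither count is independent evidence that receptor genes were bound more often than other genes. By any peak base over any own start site, a looser measure, the count was 9 of 10, with THRA the exception. The share of all protein-coding genes by this measure was not computed, so this count has nothing to be set against.

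The 17 peaks without a symbol were divided unevenly. PPARD had 7 of them, NR4A1 had 5, NR1D1 had 4 and NR4A2 had 1, and the labelled peaks of NR3C1, VDR and NR1H2 had none within 50 kb. Among all 7169 labelled peaks, 51.5% had no unlabelled peak within this distance. The labelled peak at the PPARD start had 5, and as many or more were found around 4.35% of labelled peaks. Both NR1D1 peaks had 4, as did 2 of the NR4A1 peaks, which 8.15% of labelled peaks matched or exceeded. The farthest unlabelled peak included lay 47.8 kb from a labelled one, and the nearest ones outside lay 76.7 kb away at NR4A1 and 77.1 kb away at PPARD.

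**Figure D1:**
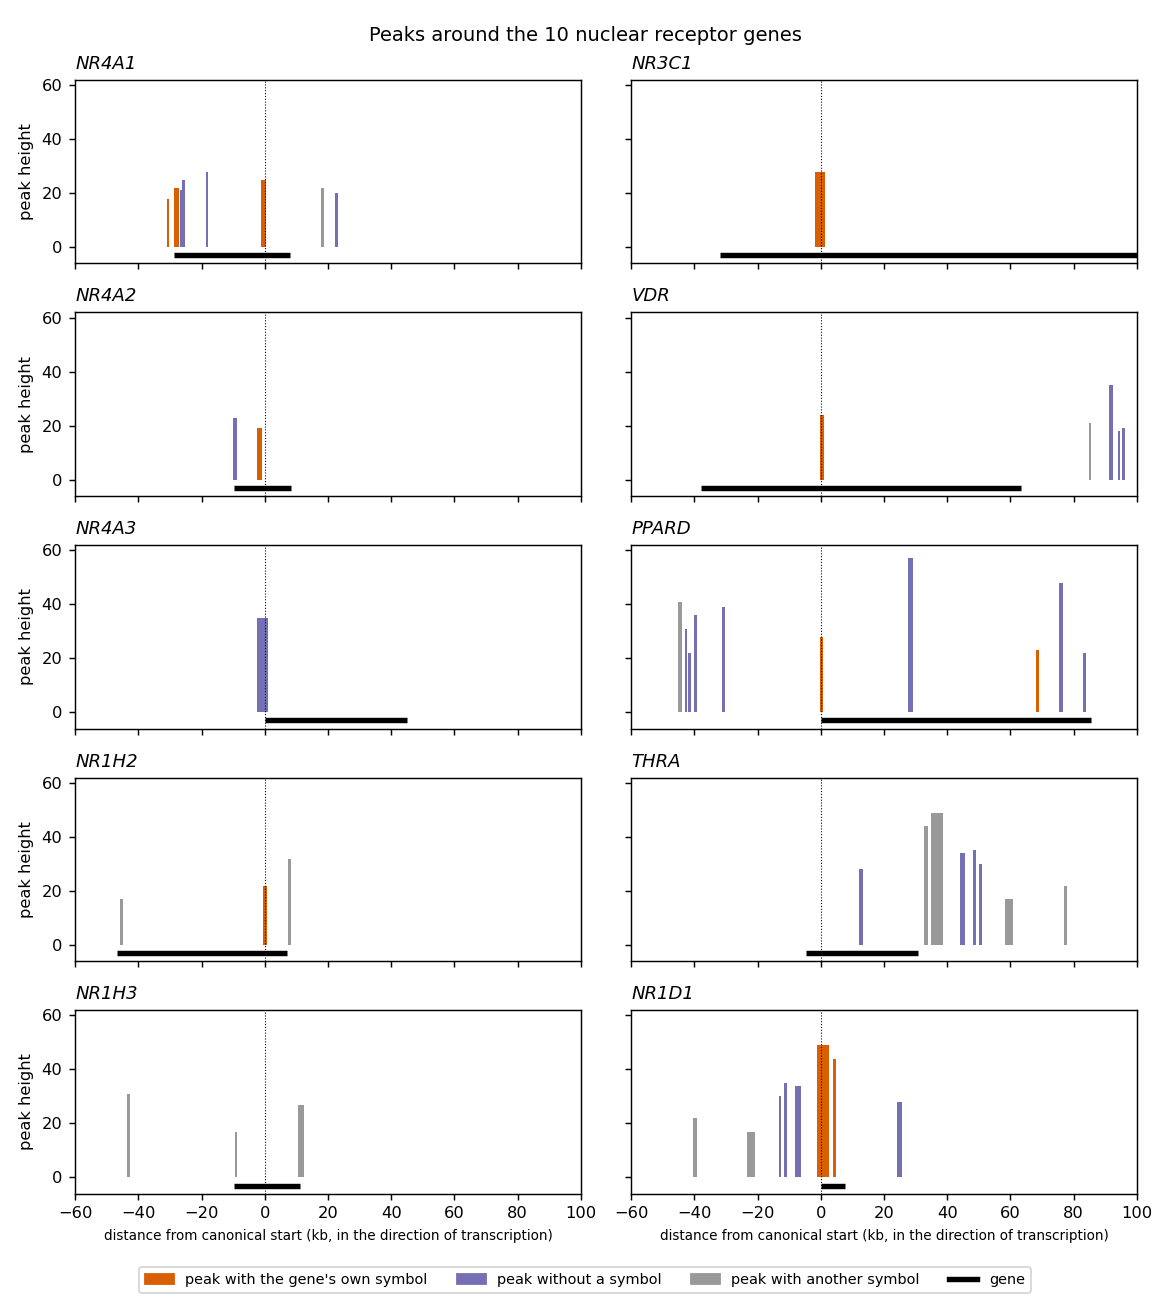
Peaks around the 10 receptor genes. The x axis gives the distance from the canonical start site in kb, in the direction of transcription, and the y axis gives the peak height (largest signal). Bars are peaks, drawn at least 0.8 kb wide so that narrow ones can be seen, and the black line is the gene. Orange bars carry the symbol of the gene itself, purple bars no symbol and grey bars another symbol. The highest bar is the unlabelled intron 2 peak of PPARD at 57, and NR4A3, NR1H3 and THRA have no orange bar.

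The height of a peak is its largest signal, a whole number in the authors' units. Ranks run from 1 for the highest or widest of the 15412 peaks, and peaks of equal value share the best rank. The 11 labelled peaks of the members had heights of 18 to 49 with a median of 24, and the median of all labelled peaks was 26. Of the 11, 4 were above that median and 7 were below it. By other measures of signal the order was the reverse, with a median total signal of 11668 beside 10082 for all labelled peaks, and a median of total signal per base of 9.68 beside 9.08. Total signal is a sum over the peak, so it also grows with width. The interval of the median height of 24 was 19 to 44, which includes 26, so the median heights were not told apart. Of the 11 peaks, the narrowest was 635 bp and the widest 3658 bp. Their median width was 1361 bp, beside 1108 bp for all labelled peaks, and 7 of the 11 were wider than that. The 17 unlabelled peaks had a median height of 28 and a median width of 842 bp, beside 23 and 634 bp for all unlabelled peaks of the list. For both measures, 12 of the 17 were above the median of all unlabelled peaks.

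**Figure D2:**
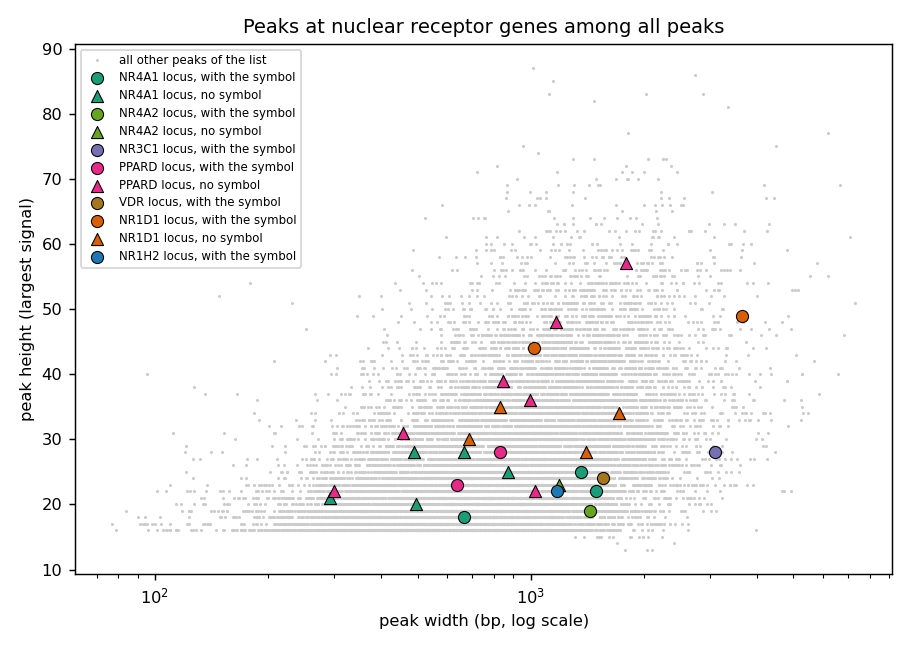
Height against width for all 15412 peaks (grey) and the 28 peaks of the receptor loci (colours by locus). The x axis is the peak width in bp on a log scale and the y axis is the height (largest signal). Circles carry the symbol of the gene and triangles carry no symbol. The unlabelled PPARD peak at 57 and the labelled NR1D1 peak at 49 are the highest of the 28, and the NR1D1 and NR3C1 peaks lie farthest to the right.

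NR1D1 had the strongest labelled peaks of the 10 genes. NR1D1 encodes REV-ERB alpha, a heme-binding repressor of the circadian clock. The gene (ENSG00000126368) lies on the minus strand of chromosome 17 from 38249046 to 38256842. Its main peak, from 38254230 to 38257887, covered the start site and had its apex in intron 1, 1326 bp downstream of the start. With a height of 49 it ranked 706th, above 94.9% of all peaks, and with a width of 3658 bp it ranked 92nd, wider than 99.4% of them. Its total signal was 49177. No other peak of the 28 was as wide.

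The second labelled NR1D1 peak, from 38251983 to 38253005, lay in intron 4, 4457 bp downstream of the start. It was 1023 bp wide (rank 5715) and 44 high (rank 1234). Upstream of the gene were 3 unlabelled peaks. The nearest, from 38263263 to 38264978, peaked 7757 bp upstream of the start, with a height of 34 (rank 3401) and a width of 1716 bp (rank 1704). The next, from 38267525 to 38268352, was 35 high (rank 3088) and 828 bp wide (rank 7720), with its apex 11168 bp upstream. The farthest, from 38269426 to 38270109, was 30 high (rank 4820) and 684 bp wide (rank 9426), with its apex 12792 bp upstream in an exon of ENSG00000279199. All 5 peaks were thus higher than the median of the whole list, which was 25.

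THRA, the gene of thyroid hormone receptor alpha (ENSG00000126351), runs on the plus strand from 38214543 to 38250120 and ends inside NR1D1. The genes overlap tail to tail over 1075 bp, from 38249046 to 38250120. No peak touched this stretch. THRA had no labelled peak and was the only one of the 10 genes with none of its start sites under a peak. An unlabelled peak in THRA intron 2, from 38231207 to 38232613, was included because its centre lay 20.6 kb from that of an NR1D1 peak. It was 28 high (rank 5666) and 1407 bp wide (rank 3047), and its apex was 3364 bp downstream of the nearest THRA start.

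PPARD had the highest peak of the 28, and it lay inside the gene rather than at its start. PPARD encodes PPAR delta, a receptor for fatty acids that controls their oxidation. The gene (ENSG00000112033) runs on the plus strand of chromosome 6 from 35310335 to 35395968. An unlabelled peak in intron 2, from 35337830 to 35339627, had a height of 57 (rank 234, above 98.2% of all peaks) and a width of 1798 bp (rank 1518). Its apex was 27914 bp downstream of the nearest PPARD start. An unlabelled peak in intron 3, from 35385672 to 35386839, was 48 high (rank 794) and 1168 bp wide (rank 4543). Both exceeded the labelled peak at the start, from 35310059 to 35310889, which was 28 high (rank 5666) and 831 bp wide (rank 7683) and peaked 156 bp upstream.

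The other labelled PPARD peak, from 35378663 to 35379297, lay over coding sequence of exon 3 and was 68562 bp from the nearest PPARD start in GENCODE. It was 23 high (rank 8433) and 635 bp wide (rank 10079). Labels this far from a start were rare. Of the 6982 labelled peaks whose gene could be matched, the median distance was 102 bp, and 8 peaks were at least as far away as this one, itself included. A further unlabelled peak, from 35393166 to 35394193, lay over the 3′ UTR in exon 8 and was 22 high (rank 9138) and 1028 bp wide (rank 5680). Its signal was thinly spread, with a total signal of 4991, and its mean signal per base exceeded that of only 1.29% of the peaks. With 4 apexes inside the gene, PPARD was matched or exceeded by 1.92% of protein-coding genes. Only 5888 of these 20149 genes held any apex, and gene length, 85634 bp for PPARD, was not taken into account.

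Upstream of PPARD, 4 unlabelled peaks lay in introns of DEF6, a neighbouring gene that encodes a guanine nucleotide exchange factor of immune cells. Their apexes were 30940 to 42681 bp from the PPARD start. The highest, from 35279043 to 35279884, was 39 high (rank 2104) and 842 bp wide (rank 7560). The peak from 35270179 to 35271175 was 36 high (rank 2815) and 997 bp wide (rank 5982). The remaining ones, 456 and 299 bp wide, were 31 high at 35267388 to 35267843 (rank 4397, width rank 12645) and 22 high at 35268653 to 35268951 (rank 9138, width rank 14581). Each of the 4 was nearer to a start of DEF6 than to one of PPARD, so the distance rule alone placed them with PPARD.

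NR4A1 had the most peaks with its symbol, but none was high. NR4A1 encodes NUR77, an orphan receptor that is rapidly induced by many stimuli. The gene (ENSG00000123358) runs on the plus strand of chromosome 12 from 52416616 to 52453291, and its canonical transcript starts at 52445226. At that start, the peak from 52444143 to 52445503 was 25 high (rank 7226) and 1361 bp wide (rank 3296), with its apex 170 bp upstream of the nearest start. The peak from 52416566 to 52418055, over the 5′-most start, was 22 high (rank 9138) and 1490 bp wide (rank 2610). The peak from 52414332 to 52414996, 1900 bp upstream of that start, was 18 high (rank 12401) and 665 bp wide (rank 9682). Of the 6546 gene symbols in the list, 58 (0.886%) had 3 or more labelled peaks.

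Between the upstream and the canonical start of NR4A1 were 3 unlabelled peaks. The first, from 52418602 to 52418893, was 21 high (rank 9879) and 292 bp wide (rank 14653). The second, from 52419110 to 52419981, was 25 high (rank 7226) and 872 bp wide (rank 7232). The last, from 52426567 to 52427232, was 28 high (rank 5666) and 666 bp wide (rank 9671). Together with the labelled peaks this made 5 apexes inside NR4A1, a number that 1.04% of protein-coding genes matched or exceeded. As for PPARD, this share is over genes with and without a peak and takes no account of gene length. The remaining unlabelled peaks lay in other genes. One was in intron 1 of ACVR1B, an activin receptor gene, from 52366589 to 52367078, with a height of 28 (rank 5666) and a width of 490 bp (rank 12182). Another was in intron 3 of ATG101, an autophagy gene, from 52467631 to 52468124, with a height of 20 (rank 10691) and a width of 494 bp (rank 12109).

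The other NR4A genes had fewer peaks. NR4A2 encodes NURR1, a relative of NUR77 (ENSG00000153234, minus strand of chromosome 2 from 157180949 to 157198860, canonical start at 157189233). Its labelled peak, from 157190256 to 157191690, was 19 high (rank 11488) and 1435 bp wide (rank 2880), and its apex was 1974 bp upstream of the nearest start. An unlabelled peak, from 157198035 to 157199223, was 23 high (rank 8433) and 1189 bp wide (rank 4397), with its apex 480 bp downstream of the 5′-most NR4A2 start. The unlabelled peak was thus nearer to a start of NR4A2 than the labelled one.

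NR4A3, which encodes NOR1, the last of the NR4A receptors, had no labelled peak, so no peak entered through it. The gene (ENSG00000119508) runs on the plus strand of chromosome 9 from 102584137 to 102629173. An unlabelled peak from 102581578 to 102585107 nevertheless covered its start. It was 35 high (rank 3088) and 3530 bp wide (rank 104, wider than 99.3% of all peaks), and was higher and wider than every peak at NR4A1 and NR4A2. Its apex lay 1990 bp upstream of the NR4A3 start and 24 bp inside a noncoding transcript, ENSG00000237461. It is not counted among the 28.

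NR3C1 and VDR each had 1 peak, over a start site. NR3C1 encodes the glucocorticoid receptor (ENSG00000113580, minus strand of chromosome 5 from 142657496 to 142815077). Its peak, from 142782014 to 142785116, was 3103 bp wide (rank 188, wider than 98.8% of all peaks) but 28 high (rank 5666, above 60.1%). The apex lay 175 bp upstream of the nearest start and 1156 bp upstream of the canonical one. VDR encodes the vitamin D receptor (ENSG00000111424, minus strand of chromosome 12 from 48235320 to 48336831). Its peak, from 48297614 to 48299168, was 24 high (rank 7817) and 1555 bp wide (rank 2303), and its apex lay in intron 1, 184 bp downstream of the start.

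Of the liver X receptor genes, NR1H2 had 1 labelled peak of low height and NR1H3 had none. NR1H2 encodes liver X receptor beta (ENSG00000131408, plus strand of chromosome 19 from 50832910 to 50886645). Its labelled peak, from 50879309 to 50880483, was 22 high (rank 9138) and 1175 bp wide (rank 4502), and its apex lay in the 5′ UTR in exon 2, 348 bp downstream of a start. NR1H3 encodes liver X receptor alpha (ENSG00000025434, plus strand of chromosome 11 from 47269851 to 47290584) and had no labelled peak. A peak from 47270254 to 47270533, labelled ACP2, lay 30 bp upstream of an NR1H3 start, and it was 17 high (rank 13294) and 280 bp wide (rank 14759). A peak labelled MADD, from 47290198 to 47292057, was 27 high and 1860 bp wide and had its apex in the last exon of NR1H3, 842 bp downstream of an NR1H3 start and 178 bp upstream of a MADD start. Where starts of 2 genes lie this close, the list cannot say which gene a peak belongs to.

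Within the receptor superfamily, 19 of 48 genes had a labelled peak (39.6%). The 7 labelled members are among these, and of the 38 other receptor genes 12 had one (31.6%, Wilson 95% interval 19.1 to 47.5%), close to the 29.9% of all protein-coding genes. NR1D1, at 49, had the highest labelled peak of the superfamily. It was followed by ESRRA (estrogen-related receptor alpha) at 46, RARA at 41, NR2C1 and RXRB at 37 and ESR2 at 35. PPARD and NR3C1, at 28, were the only other members above the median of all labelled peaks, and NR4A2, at 19, was among the lowest. By the apex of any peak within 1 kb of a start, 22 of the 48 genes were counted (45.8%). Of these, 15 were among the 38 other receptor genes (39.5% of those), and the share of all protein-coding genes was 39.2%. Relative to the labels, 4 genes were gained. They were NR1H3, PPARG with an unlabelled peak of height 24 at 378 bp, NR1D2 at 105 bp from a peak labelled NKIRAS1 and NR2C2 at 156 bp from a peak labelled FGD5-AS1. NR1D1, whose apexes lay at least 1326 bp from its start, was lost.

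**Figure D3:**
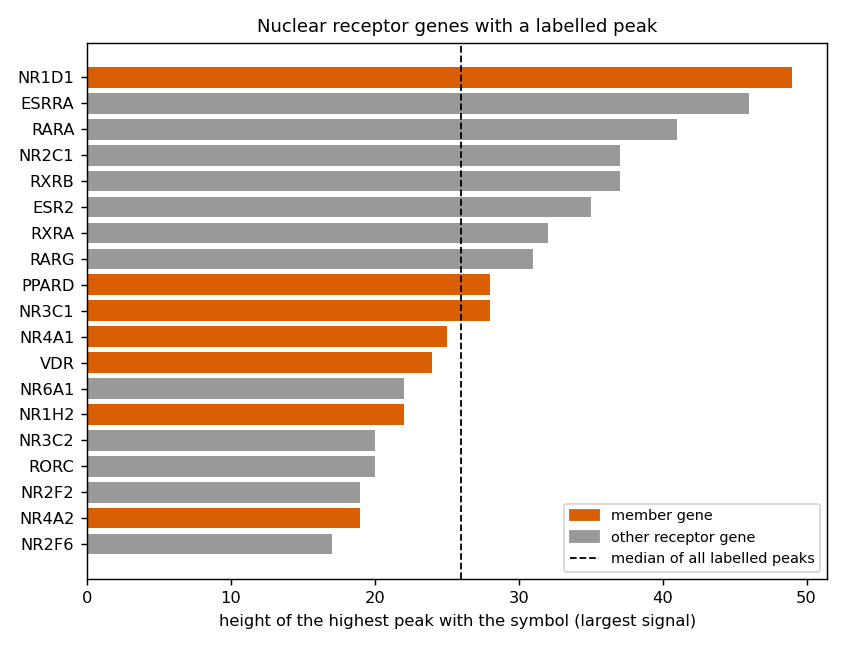
Height of the highest labelled peak for the 19 nuclear receptor genes that had one. The x axis is the height (largest signal). Orange bars are genes of the 10 described here, grey bars are other receptor genes, and the dashed line is the median of all labelled peaks, 26. NR1D1 at 49 heads the list, while NR4A1, VDR, NR1H2 and NR4A2 lie left of the line.

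Of 25 textbook target genes of the members, 15 had a labelled peak, beside the 29.9% of all protein-coding genes, and this list too was drawn up with earlier results known. For the glucocorticoid receptor this was 5 of 6, with PER1 (a clock repressor) at 60, FKBP5 (a chaperone that dampens the receptor) at 48, TSC22D3 (the glucocorticoid-induced leucine zipper) at 41, KLF9 at 29 and ZFP36 at 27. DUSP1, a MAP kinase phosphatase, had none. For the liver X receptors it was 4 of 6, led by LPCAT3, a phospholipid-remodelling enzyme, at 38, with SCD at 32, SREBF1 at 30 and MYLIP at 27, while the cholesterol exporters ABCA1 and ABCG1 had none. For VDR it was 2 of 5, namely CAMP, the cathelicidin gene, at 33 and CD14 at 17. For PPARD it was 1 of 4, CPT1A, an enzyme of mitochondrial fatty acid import, at 40. The NR1D1 targets had 3 of 4, all low, with CLOCK at 18, ARNTL at 17 and NFIL3 at 16. The apex nearest to an ARNTL start was 11899 bp away, in an unlabelled peak. Unlabelled peaks had their apexes 1344 bp from a DUSP1 start and 4075 bp from an ABCG1 start, whereas the nearest to ABCA1 was 42385 bp away. By the apex of any peak within 1 kb of an own start, 14 of the 25 targets were counted, beside 39.2% of protein-coding genes. Among 10 coactivator and corepressor genes of nuclear receptors, 4 had a labelled peak, with heights of 21 to 36.

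Half-sites of all 4 forms lay near the apexes of some of these peaks, and no difference between the forms was tested. AGGTCA or AGTTCA, on either strand, lay within 200 bp of the apex in 7 of 28 peaks (Wilson 95% interval 12.7 to 43.4%), and in 34.8% of all peaks. In the labelled peaks of the members it was 4 of 11, beside 24.8% of all labelled peaks. Taken singly, AGGTCA was found in 5 of 28 peaks, beside 23.1% of all peaks, and AGTTCA in 4 of 28, beside 16.1%. GGTTCA was found in 7 of 28 peaks, beside 14.1% of all peaks, which lies within the interval of 12.7 to 43.4%. GGGTCA was found in 5 of 28, beside 21.0%. A direct repeat, taken as 2 half-sites of any of the 4 forms on the same strand with 0 to 8 bases between them, was present in 0 of 28 peaks, which allows a share of up to 10.7% by the limit of 3 counts, and in 1.80% of all peaks. With 28 peaks, a share as low as that of the list could not be detected. Whole peaks also held none, over 32.2 kb in all. Across the whole list there were 0.480 direct repeats per 10 kb. The windows reach past the edges of the narrower peaks, and the intervals cover the counting of peaks only.

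Counted over whole peaks rather than at the apex, the 28 held 72 half-sites of the 4 forms, or 22.4 per 10 kb, beside 20.8 in all peaks. They were spread unevenly, since 5 of the 28 held none and the main NR1D1 peak alone held 14, or 38.3 per 10 kb. As many were found in 27 peaks of the list, this one included, and a wide peak holds more sites by its length. None of the 14 lay in its printed window. In genome coordinates, 10 lay on the lower side of the apex, the nearest at -291 bp, and 4 on the other, the nearest at 343 bp. The NR1D1 upstream peak at 38267525 had its 3 GGGTCA half-sites close around the apex. In its printed window the first and second were on the same strand with 12 bases between them, and the last was on the opposite strand 7 bases further on, so they did not form a direct repeat as defined here. The intron 2 peak of PPARD held 6 half-sites over its whole length. Those within 200 bp of its apex were AGTTCA 68 bp before it and AGGTCA 173 bp after it, both outside the printed window.

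The E-box CACGTG, through which the clock activators CLOCK and BMAL1 as well as MYC, MAX and USF proteins bind DNA, was present in all 6 peaks of the NR1D1 locus. It was present in 21.0% of all peaks. The 6 peaks held 9 E-boxes, or 9.66 per 10 kb, beside 2.68 per 10 kb in the whole list and 2.80 in all labelled peaks. The main peak held 4 of them, and each of the other 5 peaks held 1. Outside the NR1D1 locus, E-boxes were found in 4 of the 22 other peaks, with 1 in each. This motif was singled out after its positions had been seen, and the 6 peaks are neighbours, so the count is a description. The 6 E-boxes nearest to an apex in this locus are shown with their surroundings, 30 bases of the plus strand of GRCh37 each, with the E-box in capitals.
NR1D1 intron 4 peak, chr17:38252373-38252402: ctcaaccatgctCACGTGcttctcttcctt
NR1D1 main peak, first, chr17:38255384-38255413: acgtccctgctcCACGTGtgcctctcgcac
NR1D1 main peak, second, chr17:38255399-38255428: gtgtgcctctcgCACGTGgctccccaacga
NR1D1 main peak, last, chr17:38255680-38255709: aaacaaacgcagCACGTGggcccggctcta
NR1D1 nearest upstream peak, chr17:38264636-38264665: gagggggtggggCACGTGgccctgcccgag
NR1D1 farthest upstream peak, chr17:38269655-38269684: ggaagggaggtcCACGTGgagtgggcggaa

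The E-box of the intron 4 peak began at the apex itself. Those of the nearest and the farthest upstream peak began 49 and 33 bp from their apexes. In the main peak, the first and second were 120 and 105 bp before the apex in genome coordinates. The one marked last, which is the last of those shown, was 176 bp after the apex. The remaining E-box of the main peak, 1785 bp after the apex, is not shown.

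**Figure D4:**
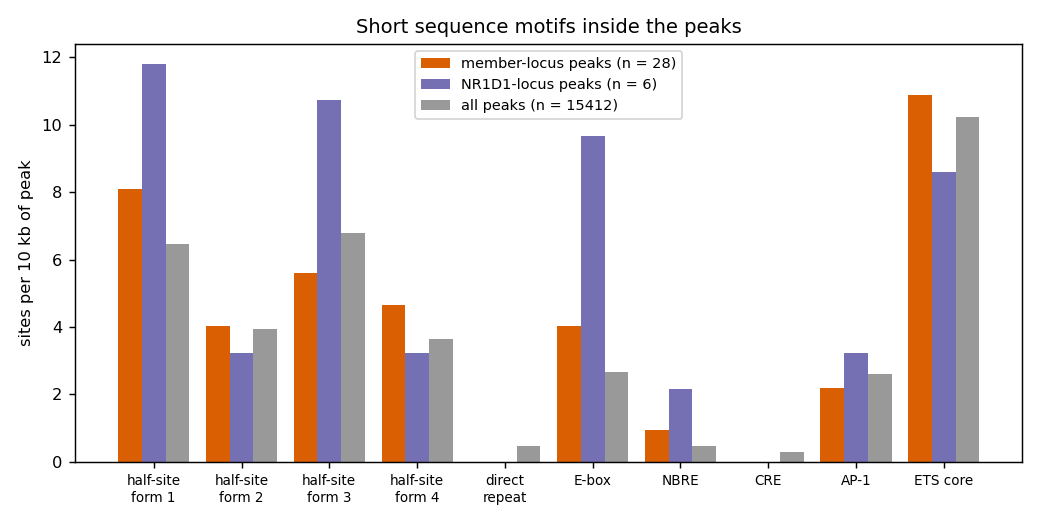
Density of short motifs over whole peaks. The y axis is the number of sites per 10 kb of peak, on both strands. Orange bars are the 28 peaks of the receptor loci, purple bars the 6 of them at NR1D1 and grey bars all 15412 peaks. Half-site form 1 is AGGTCA, form 2 is AGTTCA, form 3 is GGGTCA and form 4 is GGTTCA. The E-box stands at 9.66 at NR1D1 and 2.68 in all peaks, and direct repeats and the full cyclic AMP response element are at 0 in the 28.

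Motifs of other factors had shares near those of the list at the apex, or lower. The ETS core GGAAGT, read by PU.1 and other myeloid ETS factors, was within 200 bp of the apex in 12 of 28 peaks (42.9%) and in 42.3% of all peaks. The PPARD intron 2 peak held 4 of them, together with the AP-1 site TGACTCA 48 bp after its apex. This was the only AP-1 site near the apex of any of the 28 (3.57%, all peaks 14.4%). Over whole peaks, the AP-1 site was present in 5 of 28 (17.9%), beside 21.3% of all peaks. The GC box GGGCGG, bound by SP and KLF factors, was present in 14 of 28 (all peaks 48.7%), and in 7 of the 11 labelled ones, beside 76.2% of all labelled peaks. NR1H2 had 8 GC boxes in its window, and 5 of these followed one another at equal steps, beginning 13 bp before the apex and 12, 37, 62 and 87 bp after it. The NR4A response element AAAGGTCA, the cyclic AMP response element TGACGTCA and the glucocorticoid receptor palindrome, which is AGAACA followed after any 3 bases by TGTTCT, were present in 0 of 28 at the apex, which allows up to 10.7% for each by the same limit of 3 counts. In all peaks they were present in 2.00%, 1.83% and 0.00649%. Over whole peaks, AAAGGTCA was present in 3 of 28, 2 of them at NR1D1, beside 4.41% of all peaks, and TGACGTCA in 0 of 28, beside 2.78%. A match or its absence says only whether these letters stand in the window.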

How the data were processed

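One list of Cut&Run peaks was analysed, from the anti-PML::RARA antibody in induced U937-PR9 cells. The authors' steps were trimming (Trimmomatic), alignment to hg19 (Bowtie2), removal of PCR duplicates (Samtools) and of blacklisted reads (Bedtools), peak calling against paired controls (SEACR, setting norm union) and a filter for reproducibility over 2 replicates by IDR. Tool versions are not given in the sources used here. The authors deposited for each peak a total signal and the SEACR score, read here as the largest signal (height), and no source used here says whether these values were normalized, although the authors drew their signal tracks as counts scaled by library size. These meanings were taken from the values, as total signal was below height times width in all 15412 peaks. Whether the signal is of 1 replicate or of pooled reads is not stated. Symbols are the authors' promoter assignments by apex. Sequencing depth is unknown.

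The apex was the midpoint of the interval of largest signal, or its start in 34 peaks that lack an end. Places and start sites came from GENCODE release 44 on GRCh37, the same build as hg19, and sequences from GRCh37. Intervals printed for shares above 0 are Wilson 95% intervals, and a limit printed for a share of 0 is that of 3 counts. Other shares are printed without an interval. The motif search was tested on simulated sequences. Python 3.11.15, pandas 2.3.3, scipy 1.17.1, pysam 0.24.0, matplotlib 3.10.9 and samtools 1.23.1 were used. No test was run, because the list has 1 value per peak.

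The members and the gene lists were chosen with earlier results of these data known. The rule named all members and their peaks, the 5 other receptor genes with the highest labelled peaks, the highest target of each receptor, and genes in which, or beside which, a peak lies. Other targets, and receptor genes counted by position alone, were named after their values were seen. Alternatives were other distances, merged peaks, minimum height or width, mean signal and other motif windows. The search over whole peaks and the E-box count were added after seeing the data.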

Additional observations from a re-analysis of the deposited data

How the results depend on the processing

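Of 22 alternatives, 15 left a count within 1.5 times, or a median within its interval, and 7 did not. The 15 include direct-repeat searches whose count was fixed beforehand, as given below. Among the 7, total signal divided by width is in another unit than height, so it could not fall within the interval of the median height. A minimum height of 25, the median of the list, reduced the peaks of the receptor loci from 28 to 15, the labelled ones from 11 to 5, the genes with an apex within 1 kb of a start from 7 to 4 and the receptor genes with a labelled peak from 19 to 11, because lower peaks were removed. With unlabelled peaks taken within 10 kb rather than 50 kb, 17 peaks were counted. A window of 100 bp in place of 200 bp left 3 peaks with a half-site in place of 7, beside 21.4% of all peaks, as a shorter window holds fewer sites. Total signal divided by width gave a median of 9.68 for the labelled peaks of the members, above the 9.08 of all labelled peaks, whereas their median height of 24 was below the 26 of all labelled peaks. The place of the members' labelled peaks relative to all labelled peaks thus depended on the measure. The 26 lies within the interval of their median height, 19 to 44. The cause of this dependence was not tested. The count of peaks with a direct repeat was 0 under all 4 alternatives tried for it. The shorter window, the search for AGGTCA and AGTTCA alone and the restricted spacings lie within the main search. Their 0 was therefore fixed beforehand, and only the window around the peak centre could have given another count. Leaving out a replicate could not be done. No paired analysis was possible because single replicates have no values in the list.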
